A study of Bos taurus with 24 samples.

Results

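Activins are dimers of inhibin beta subunits, and inhibins pair a beta subunit with the inhibin alpha subunit. In granulosa cells of antral follicles activin acts through type I and type II receptors and the transducers SMAD2 and SMAD3, inhibin opposes it, and follistatin binds activin and removes it from its receptors. BMP7 is a bone morphogenetic protein that signals through other SMADs and, in rodents, is known as a theca product that acts on granulosa cells. ID genes, ID3 among them, are well-known targets of BMP signals.

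The 6 genes described here are INHBA (the beta A subunit), INHA (the alpha subunit), FST (follistatin), BMP7, SMAD2 and ID3. They were chosen by gene symbol, are covered by 9 of 17418 array features, and are 6 of the 9026 genes that could be tested. INHBA, INHA, FST and BMP7 had 1 feature each, SMAD2 had 3 and ID3 had 2.

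The study took 1 follicle, the largest, from each of 16 heifers, and these follicles measured 8 to 12 mm across. Their total RNA was hybridised in pairs to 24 two-colour arrays, with every follicle on 3 of them, so that the arrays linked all follicles in a loop. Only the arrays of C10 and 26 and of C26 and 33 joined J980, 8, 26, 27, C22, C26, C32 and C35 to the other follicles. Comparisons across these sides of the loop, such as of 861 with 26 or J980, rest on those arrays, whose error moves a whole side together. Apart from follicle identifiers the labels state no breed, age, treatment, stage or dominance status, so every comparison is between single follicles, each from its own animal. The SE of a level holds array error only, and p-values measure differences between these RNA samples. Whole follicles were used, so fewer cells of a type and less RNA per cell cannot be told apart.

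A level here is the estimated log2 ratio of a follicle to the mean of the 16 follicles, from a fit of all 24 arrays. The deposited log ratios were taken as log2 of Cy5 over Cy3, which is likely from the order of dyes in the labels but is not stated; with the inverse ratio every level and difference below would change sign, and no correlation would. Ratios carry no absolute level, so the presence of granulosa or theca cells could not be checked from marker levels. Arrays held 16094 to 17028 values each. Follicle J980 stood apart: of 1061 genes that differed between follicles, 39.7% were lowest in J980, against at most 7.92% in any other follicle. The SD of values on its 3 arrays was 0.474 to 0.544, and that of the other 21 arrays reached 0.488. Results are therefore given with and without J980.

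INHBA, FST and BMP7 were far lower in J980 than in any other follicle, and INHA was lower there by a smaller amount. The 6 genes all passed the test for differences between follicles with all 16 follicles (limma-moderated F test, Benjamini-Hochberg adjusted over all genes), as did 11.8% of all genes tested. Without J980 and its arrays 4 of the 6 passed, INHBA, INHA, FST and BMP7, against 7.47% of all genes. In the contrast of J980 with the mean of the other 15 follicles the same 4 genes were lower and none of the 6 was higher, and of all genes 6.14% were lower and 1.92% higher.

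**Figure D1:**
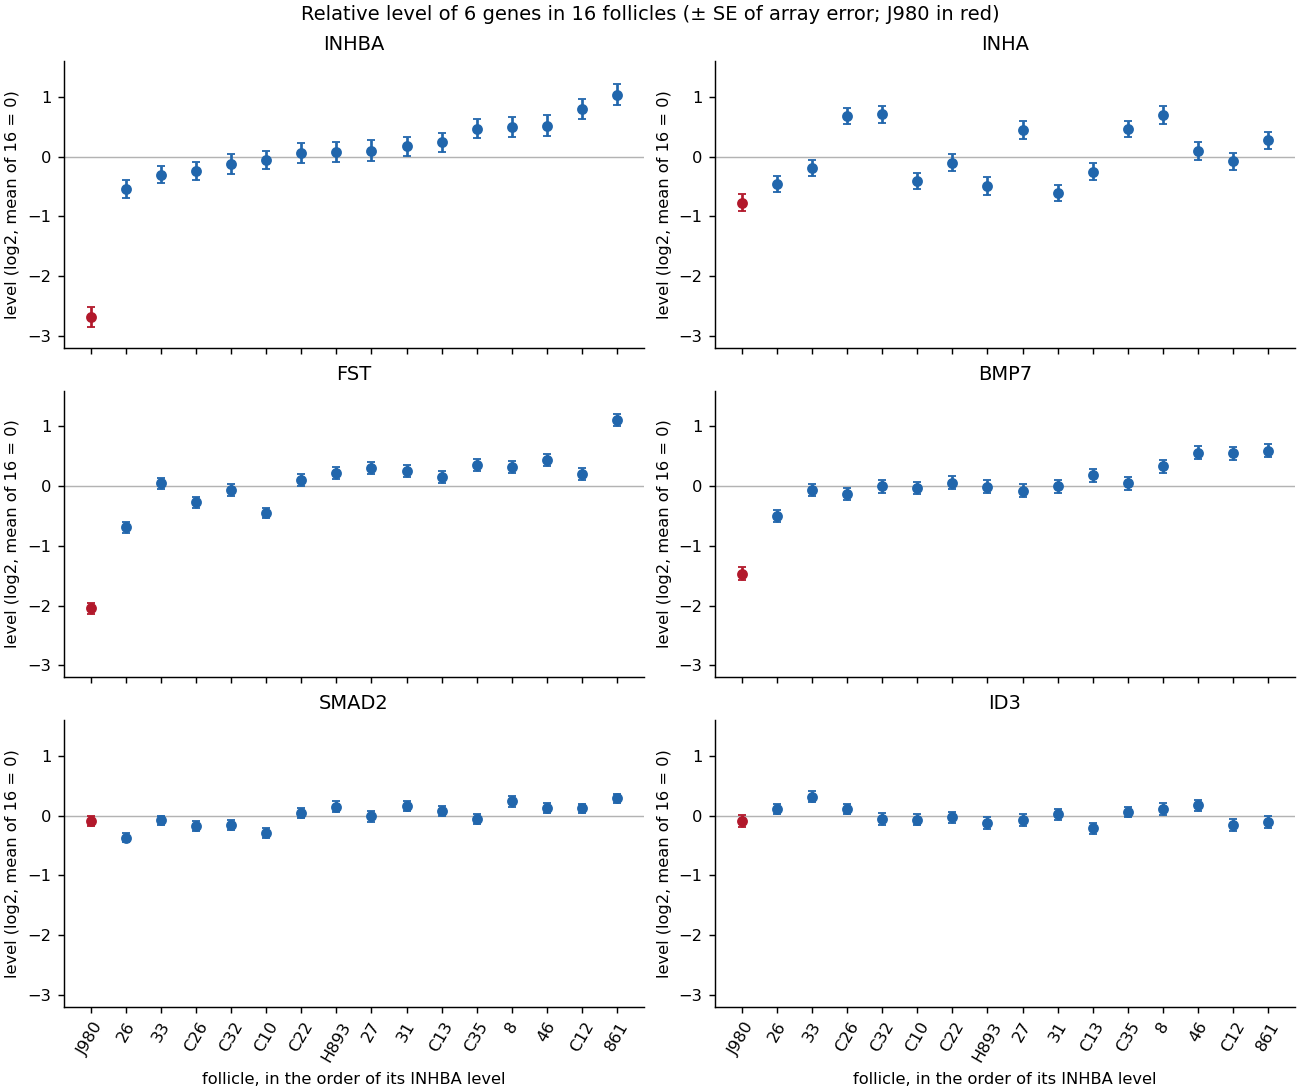
Estimated level of each gene (log2, vertical axis, mean of 16 follicles at 0) in the 16 follicles, ordered from left to right by INHBA level, with J980 in red and bars for the SE of array error. INHBA, FST and BMP7 lie lowest in J980, at -2.69, -2.05 and -1.47, and highest in 861, whereas INHA follows another order and SMAD2 and ID3 stay within 0.37 of 0.

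INHBA had a level of -2.69 ± 0.17 (SE, 3 arrays) in J980. The follicles next above it were 26 at -0.55 ± 0.15, 33 at -0.30 ± 0.15, C26 at -0.24 ± 0.15, C32 at -0.12 ± 0.17 and C10 at -0.06 ± 0.15. In the middle lay C22 at 0.06 ± 0.16, H893 at 0.08 ± 0.17, 27 at 0.10 ± 0.17, 31 at 0.17 ± 0.16 and C13 at 0.24 ± 0.16. This beta A subunit was highest in C35 at 0.47 ± 0.16, 8 at 0.49 ± 0.17, 46 at 0.52 ± 0.17, C12 at 0.80 ± 0.17 and 861 at 1.04 ± 0.17. J980 thus lay 2.14 below its nearest neighbour, and the other 15 follicles were spread over a range smaller than that gap.

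On the arrays themselves, the INHBA log2 ratio of J980 was -3.24 against follicle 8, -2.77 against follicle 27 and -2.15 against follicle 26. J980 was labelled with Cy5 on the arrays with 8 and 27 and with Cy3 on the array with 26, so the low value was seen with both dyes. On the other 21 arrays the INHBA log2 ratio ran from -1.19 to 1.02, with a median absolute value of 0.37.

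Set against the mean of the other 15 follicles, INHBA in J980 was at -2.87 ± 0.18 on the log2 scale, which is 7.32-fold lower (limma-moderated contrast, adjusted p = 5.94e-06). In this fit it was the lowest of all 9026 genes, where FST ranked 4, BMP7 ranked 18 and INHA ranked 242 from the lowest. These genes and this contrast were chosen with earlier results of these data known, so the ranks are no independent support. The contrast called 8.05% of all genes in either direction. Its count depended on single arrays, with 19 genes without the array of C10 and 26, 137 without that of C26 and 33, 247 without that of 26 and J980, and 392 without that of J980 and 27. The arrays of C10 and 26 and of C26 and 33 are those that join the sides of the loop. With either left out, the offset between the sides rests on the other alone. The INHBA contrast stayed past the threshold whichever array was left out, between -3.30 and -2.66, with adjusted p up to 0.00203.

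**Figure D2:**
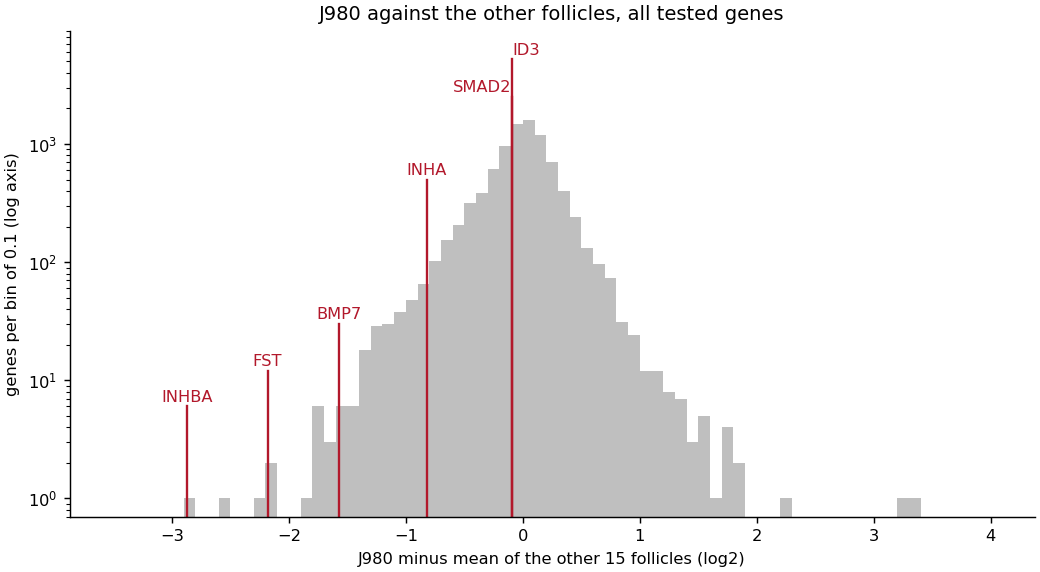
Number of genes (vertical log axis) by the difference between J980 and the mean of the other 15 follicles (log2, bins of 0.1), with the 6 genes marked in red. INHBA at -2.87 ends the left tail, FST at -2.18 and BMP7 at -1.57 lie in it, INHA is at -0.82, and SMAD2 and ID3 are near the middle at -0.10 and -0.09; line heights carry no value.

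FST, the activin-binding follistatin, had a level of -2.05 ± 0.10 in J980. It was next lowest in 26 at -0.69 ± 0.09, C10 at -0.45 ± 0.09, C26 at -0.27 ± 0.09 and C32 at -0.06 ± 0.10. The largest cluster held 33 at 0.05 ± 0.09, C22 at 0.10 ± 0.10, C13 at 0.15 ± 0.10, C12 at 0.21 ± 0.10, H893 at 0.22 ± 0.10, 31 at 0.26 ± 0.10, 27 at 0.30 ± 0.10, 8 at 0.32 ± 0.10, C35 at 0.35 ± 0.10 and 46 at 0.44 ± 0.10. Follicle 861 stood above them all at 1.11 ± 0.10, so FST had an outlying follicle at each end. In J980 it was at -2.18 ± 0.11 relative to the mean of the other 15 follicles, 4.54-fold lower (limma-moderated contrast, adjusted p = 9.63e-07). The 3 arrays gave log2 ratios of -2.58 against 8, -2.43 against 27 and -1.21 against 26, so the gap was smallest to the follicle that was itself second lowest.

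For BMP7 the level in J980 was -1.47 ± 0.11, and 26 again came next, at -0.50 ± 0.10. From there C26 at -0.13 ± 0.10, 27 at -0.08 ± 0.11, 33 at -0.07 ± 0.10, C10 at -0.03 ± 0.10, H893 at -0.01 ± 0.11, 31 and C32 at 0.00 ± 0.11, C35 at 0.05 ± 0.11, C22 at 0.06 ± 0.11 and C13 at 0.18 ± 0.11 lay close together. The highest levels of this bone morphogenetic protein were in 8 at 0.33 ± 0.11, C12 at 0.55 ± 0.11, 46 at 0.56 ± 0.11 and 861 at 0.59 ± 0.11. Unlike FST, BMP7 had no single follicle standing above the rest. J980 was at -1.57 ± 0.12 relative to the mean of the other 15, 2.97-fold lower (limma-moderated contrast, adjusted p = 3.78e-05), and its arrays gave -1.82 against 8, -1.23 against 27 and -1.08 against 26.

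INHA, the subunit that turns a beta subunit into inhibin, was ordered differently. It was low in J980 at -0.77 ± 0.14, 31 at -0.61 ± 0.14, H893 at -0.49 ± 0.15, 26 at -0.46 ± 0.13, C10 at -0.41 ± 0.13, C13 at -0.25 ± 0.14 and 33 at -0.19 ± 0.13. C22 at -0.10 ± 0.14, C12 at -0.08 ± 0.14, 46 at 0.09 ± 0.15 and 861 at 0.27 ± 0.14 followed. The highest were 27 at 0.44 ± 0.15, C35 at 0.46 ± 0.14, C26 at 0.68 ± 0.13, 8 at 0.70 ± 0.15 and C32 at 0.71 ± 0.14. C26 and C32, low in INHBA, were thus among the 3 highest in INHA, and no gap set J980 apart. Relative to the mean of the other 15 follicles J980 was at -0.82 ± 0.15, 1.76-fold lower (limma-moderated contrast, adjusted p = 0.00758). This call was lost without the dye term (-0.72, adjusted p = 0.138), with arrays scaled to one spread (-0.57, adjusted p = 0.0867), and without the array of C10 and 26 (adjusted p = 0.384), of C26 and 33 (0.079) or of 26 and J980 (0.079). The F test of INHA gave adjusted p = 0.00195 with limma, and 0.0661 without the dye term.

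Averaged over their features, SMAD2, the activin signal transducer, and ID3 varied little. The SMAD2 level was lowest in 26 at -0.37 ± 0.08 and C10 at -0.29 ± 0.08 and highest in 8 at 0.24 ± 0.09 and 861 at 0.29 ± 0.08, with J980 at -0.09 ± 0.08. ID3 ran from -0.21 ± 0.09 in C13 to 0.32 ± 0.09 in 33, with J980 at -0.09 ± 0.10. The difference of J980 from the mean of the other 15 was -0.10 ± 0.09 in SMAD2 (95% interval -0.29 to 0.10) and -0.09 ± 0.10 in ID3 (95% interval -0.32 to 0.13), in the same contrast. The F test gave adjusted p = 0.0224 for SMAD2 and 0.0487 for ID3 with limma, and 0.0552 and 0.0926 without J980. Without J980 the SMAD2 test passed with arrays scaled to one spread (adjusted p = 0.0447), when features missing from any array were dropped (0.0332), and with variances left unmoderated (0.0426). The ID3 test passed when such features were dropped (0.0484) and without the array of C13 and 46 (0.045).

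Separate features of these 2 genes disagreed, so their averages say little of J980 or of the spread between follicles. The SD of levels was 0.15, 0.24 and 0.33 for SMAD2 features 1, 2 and 3, and 0.16 and 0.41 for the ID3 features. For SMAD2 the 3 features put J980 at -0.40 ± 0.12, 0.50 ± 0.14 and -0.39 ± 0.16 relative to the other 15, and none of these passed over all 16358 features tested (limma contrast, adjusted p = 0.0675, 0.0505 and 0.183). Levels of features 1 and 2 had r = -0.127 over the 16 follicles, features 1 and 3 had 0.516, and features 2 and 3 had 0.458. The 2 ID3 features put J980 at 0.14 ± 0.12 and -0.75 ± 0.35 and had r = -0.379 with each other. With 1 feature per gene the F test call was lost for SMAD2 (adjusted p = 0.136) and for ID3 (adjusted p = 0.129), and the ID3 call was also lost on leaving out any of 23 of the 24 arrays in turn. The SMAD2 call was lost without the dye term (adjusted p = 0.0629) and on leaving out 4 of the arrays, that of 861 and C10, of C22 and C26, of 33 and C13 or of 31 and C10 (adjusted p = 0.101, 0.0531, 0.0518 and 0.0691).

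**Figure D3:**
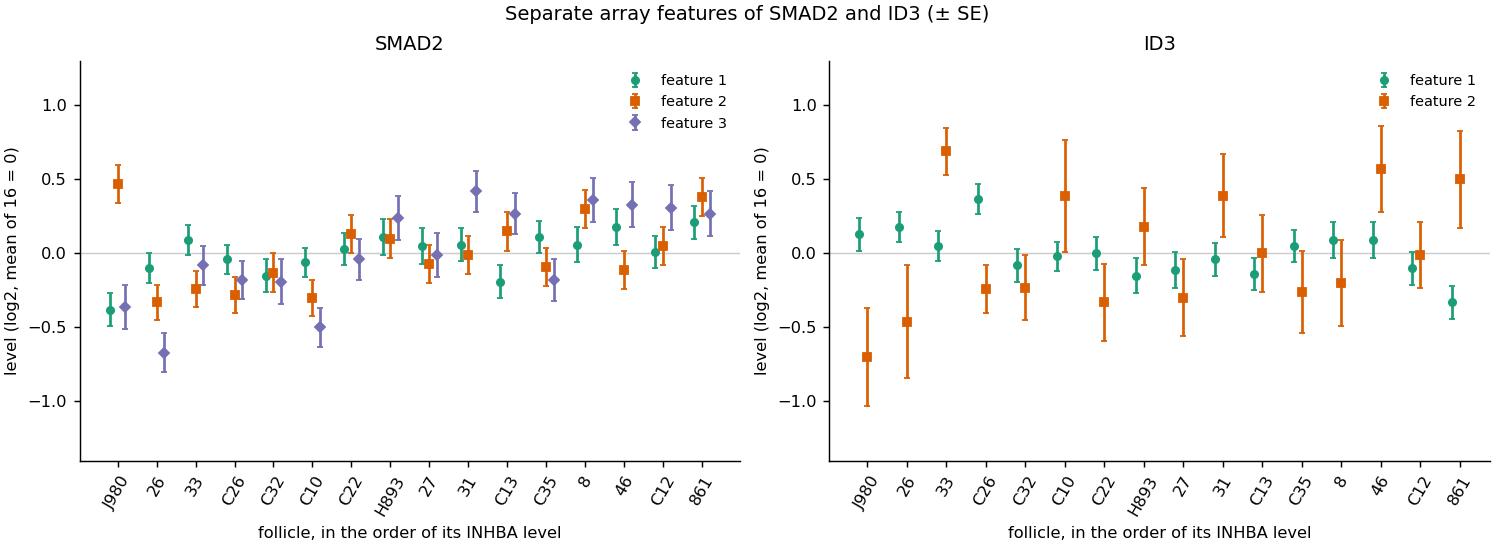
Level (log2, mean of 16 follicles at 0, bars for SE) of each array feature of SMAD2 (left, 3 features) and ID3 (right, 2 features) in the follicles ordered by INHBA level. In J980, at the far left, SMAD2 feature 2 lies at 0.47 while features 1 and 3 lie at -0.38 and -0.36, and ID3 feature 2 has wide error bars.

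Over all 120 pairs of follicles, tested in every gene and adjusted over all genes and pairs together (limma-moderated contrasts), 0.799% of comparisons were called. Of the 120 pairs, 39 were called for FST, 23 for INHBA, 22 for BMP7, 21 for INHA, 3 for SMAD2 and 1 for ID3. J980 was the lower follicle in 15 of the called pairs of INHBA, of FST and of BMP7, that is, against each of the others, and in 5 of those of INHA. Most neighbours in the order of levels were not called apart after this adjustment, which does not show that their levels were equal. BMP7, for example, was 0.37 ± 0.15 higher in C26 than in 26 and was not called (limma-moderated contrast, adjusted p = 0.421). For INHBA and BMP7 1 of 15 neighbouring pairs was called, the step from J980 to 26 (adjusted p = 0.000278 and 0.00372). For FST 2 of 15 were called, that same step (adjusted p = 0.00023) and the step from 46 to 861, of 0.67 ± 0.11 (adjusted p = 0.0148). None of the 15 was called for INHA, SMAD2 or ID3, where the lowest adjusted p was 0.774, 0.843 and 0.759.

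Follicle 26 was low in INHBA, FST, BMP7 and SMAD2, and 861 was high in them, after J980 was left out. In the fit of 21 arrays and 15 follicles, levels are relative to the mean of those 15, and 0.515% of all comparisons of follicle pairs were called. INHBA was then at 0.85 ± 0.18 in 861 and at -0.76 ± 0.19 in 26, a 3.04-fold difference (limma contrast, adjusted p = 0.0453). The FST level was 0.98 ± 0.11 in 861 and -0.81 ± 0.11 in 26, 3.46-fold apart (limma contrast, adjusted p = 0.00248). BMP7 was at 0.47 ± 0.11 in 861 and -0.64 ± 0.12 in 26, 2.15-fold apart (limma contrast, adjusted p = 0.0281). For SMAD2 the same follicles were at 0.29 ± 0.08 and -0.36 ± 0.08, which did not pass (limma contrast, adjusted p = 0.0609). Of 105 pairs, 16 were called for FST, 3 each for INHBA and BMP7, 1 for SMAD2, and none for INHA or ID3. Of the 16 FST pairs, 10 had 861 as the higher follicle.

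The spread between follicles, set against all genes, ranks these genes apart. With 16 follicles the SD of levels was 0.83 for INHBA, 0.68 for FST, 0.49 for INHA and 0.49 for BMP7, against a median of 0.17 over all genes. It was 0.18 for SMAD2 and 0.14 for ID3 as averages of disagreeing features, where single features reached 0.33 and 0.41. Without J980 the SD was 0.43 for INHBA, 0.41 for FST and 0.30 for BMP7, but it stayed at 0.46 for INHA, which then had the largest of the 6. The F test without J980 gave adjusted p = 0.0253 for INHBA, 0.0252 for INHA, 0.00219 for FST and 0.0289 for BMP7 with limma. These calls lay near the threshold, except that of FST. With 1 array left out, the INHBA call was lost for 7 of the 21 arrays, that of INHA for 10 and that of BMP7 for 13, while FST stayed past it for each. The highest adjusted p came without the array of 861 and C10 for INHBA (0.0782), of 8 and C22 for INHA (0.0771) and of 33 and C12 for BMP7 (0.0741). Without moderation of the variances the calls of INHBA, INHA and BMP7 were lost (adjusted p = 0.133, 0.12 and 0.0949), and that of INHA was lost without the dye term (adjusted p = 0.283).

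INHBA, FST and BMP7 varied together from follicle to follicle. On the 24 arrays, the log2 ratio of FST had the same sign as that of INHBA on 21, BMP7 did on 20, and INHA on 14. Restricted to the 21 arrays without J980, the counts were 18, 17 and 11, so the signs of INHA and INHBA matched on about as many arrays as not.

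**Figure D4:**
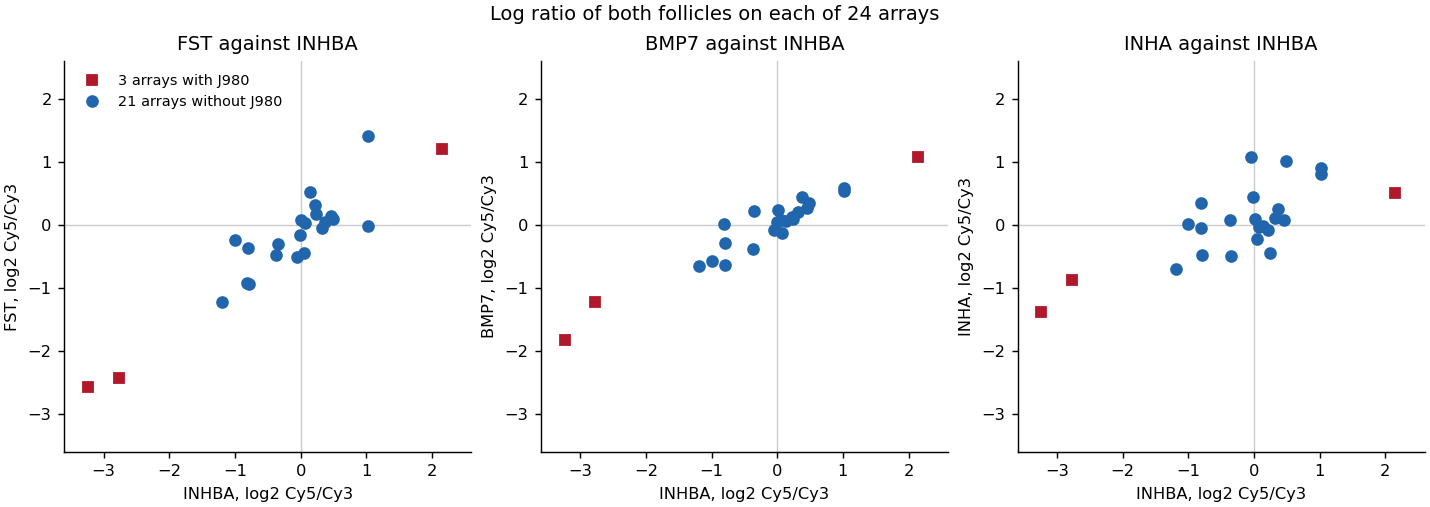
Log2 ratio of Cy5 over Cy3 of FST, BMP7 and INHA (vertical axes) against that of INHBA (horizontal axes) on each of 24 arrays, with the 3 arrays that carry J980 as red squares. FST and BMP7 rise with INHBA on the 21 blue arrays as well as on the red ones, and INHA scatters, with blue arrays on every side of the origin.

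Over the 16 follicle levels, BMP7 and INHBA had r = 0.969 and rho = 0.891 (permutation p = 1e-05 for each, the smallest that 100000 permutations give, adjusted over the 15 pairs of the 6 genes to 1e-04 and 0.00015). FST and INHBA had r = 0.949 and rho = 0.879 (permutation p = 2e-05 for each, adjusted 1e-04 and 0.00015), and BMP7 and FST had r = 0.920 and rho = 0.732 (permutation p = 2e-05 and 0.00205, adjusted 1e-04 and 0.00512). Without 861 and J980, the follicles farthest from the INHBA or FST median, r was 0.895, 0.769 and 0.702 for these pairs. The genes were chosen with results of these data known, and the errors of levels are correlated through the loop, so these p-values are no independent support.

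Refitting without J980 kept these relations. BMP7 and INHBA had r = 0.917 and rho = 0.896 over 15 follicles (permutation p = 1e-05 and 2e-05, adjusted 7.5e-05 and 3e-04). For FST and INHBA r was 0.851 and rho 0.829 (permutation p = 0.00013 and 0.00026, adjusted 0.00065 and 0.00195), and for FST and BMP7 r was 0.780 and rho 0.671 (permutation p = 0.0011 and 0.00766, adjusted 0.00275 and 0.0191). Without 26 and 861 as well, r was 0.859, 0.665 and 0.537. Among all 9003 other genes in this fit, BMP7 had the highest r with INHBA and FST had the fifth highest (rank 5), where 0.122% of genes had an r above 0.8. Because the genes were chosen with results of these data known, these ranks and p-values are no independent support either.

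Array error was shared by some of these genes. The residuals of INHBA and FST on the 24 arrays, after the fit, had r = 0.882, a value reached by 0.226% of 7520 genes with every array measured. For INHBA and BMP7 the residual r was 0.202, reached by 30.1% of genes, and for FST and BMP7 it was 0.483, reached by 9.64%. The part of this shared error in the correlation of FST with INHBA was not tested. The array error SD was 0.22 for INHBA, 0.14 for FST and 0.15 for BMP7, below the SD of their levels with or without J980.

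SMAD2 varied with these 3 genes when J980 was left out, although SMAD2 itself did not pass the F test in that fit (limma, adjusted p = 0.0552). Its r with FST over 15 follicles was 0.893 and its rho 0.80 (permutation p = 1e-05 and 0.00051, adjusted 7.5e-05 and 0.00255), the highest r with FST of all 9003 other genes. With INHBA it had r = 0.810 and rho = 0.804 (permutation p = 0.00027 and 0.00073, adjusted 0.00101 and 0.00274), and with BMP7 r = 0.780 and rho = 0.693 (permutation p = 0.00054 and 0.00552, adjusted 0.00162 and 0.0166). Without 26 and 861 these r were 0.840, 0.653 and 0.580. SMAD2 too was chosen with results of these data known, so its rank with FST and these p-values are no independent support. With J980 included r was 0.618 with FST (permutation p = 0.00803, adjusted 0.0301), 0.503 with INHBA (permutation p = 0.0416, adjusted 0.102) and 0.559 with BMP7 (permutation p = 0.0208, adjusted 0.0625), while the ranks gave 0.812, 0.794 and 0.726 for rho (permutation p = 0.00029, 0.00046 and 0.00201, adjusted 0.00145, 0.00172 and 0.00512). With all 16 follicles the relation with INHBA was called by r under other settings, at 0.79 with 1 feature per gene and 0.58 with arrays scaled to one spread (permutation, adjusted p = 0.00336 and 0.0335). That with BMP7 was called at 0.76, at 0.62 and, without the dye term, at 0.60 (permutation, adjusted p = 0.00557, 0.0248 and 0.0385), and without the array of 27 and C32, of 33 and C12, of J980 and 27 or of 26 and J980 (r of 0.57 to 0.60). Other calls rested on single arrays, among them those of C10 and 26 and of C26 and 33, which join the sides of the loop. Without J980, leaving out the array of 26 and C35 or of C26 and 33 gave r of 0.52 or 0.38 with INHBA (permutation, adjusted p = 0.137 and 0.244) and 0.49 or 0.35 with BMP7 (permutation, adjusted p = 0.16 and 0.271). With all follicles, the call by r with FST was lost without the array of C10 and 26, of C26 and 33 or of J980 and 8, where r was 0.53, 0.49 and 0.56 (permutation, adjusted p = 0.105, 0.0722 and 0.0749). Each SMAD2 feature on its own had a positive r with FST over 15 follicles, 0.674, 0.762 and 0.766, so this relation was seen in every feature. The residual r of SMAD2 and FST was 0.614, reached by 3.67% of genes, and its part in the relation was not tested. The change in the averaged SMAD2 level was small beside that of FST, with a range of 0.65 against 1.79 over these 15 follicles.

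**Figure D5:**
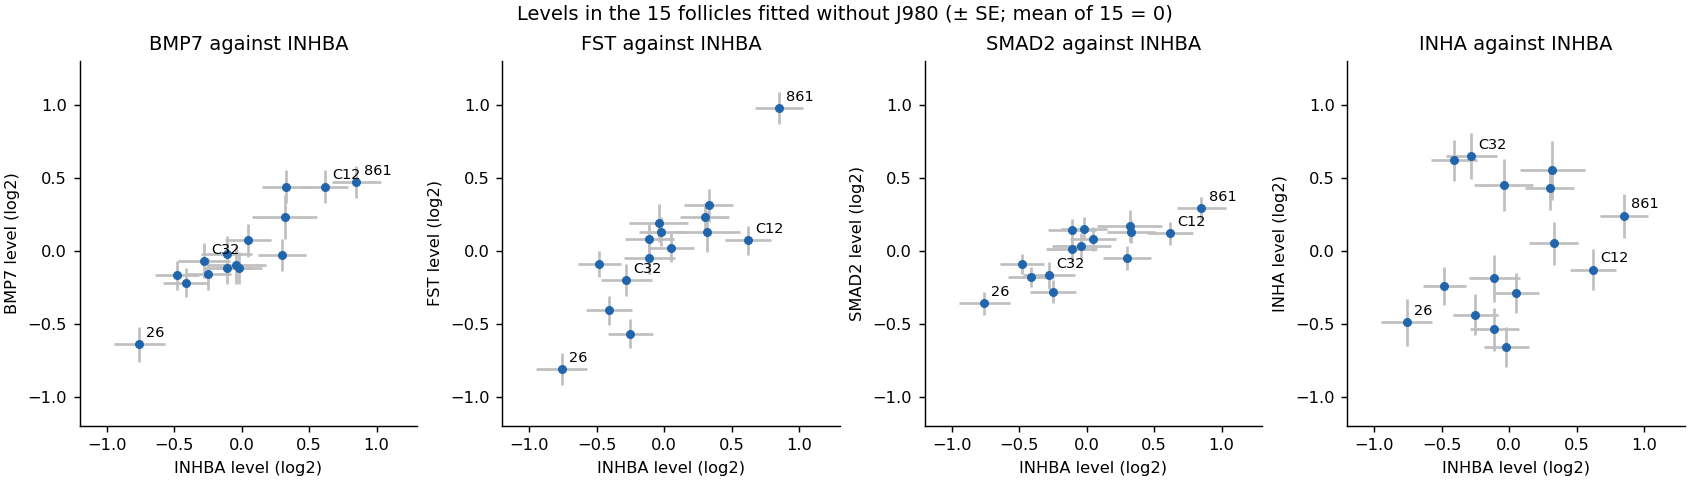
Levels (log2, mean of 15 follicles at 0, bars for SE) of BMP7, FST, SMAD2 and INHA (vertical axes) against the INHBA level (horizontal axes) in the fit without J980. BMP7, FST and SMAD2 rise with INHBA from follicle 26 to 861, with r of 0.917, 0.851 and 0.810, and INHA does not follow it, with r of 0.247.

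INHA and ID3 had no called relation with the other genes when every array was used. Over 16 follicles INHA had r = 0.460 with INHBA (raw permutation p = 0.0545, adjusted over the pairs 0.102) with a rho of 0.341 (raw 0.196, adjusted 0.326), and r was 0.181 without 861 and J980. Over 15 follicles r was 0.247 (raw permutation p = 0.376, adjusted 0.461) with a rho of 0.157 (raw 0.575, adjusted 0.664). ID3 had r = -0.042 with INHBA over 16 follicles (raw permutation p = 0.88, adjusted 0.971) with a rho of -0.279 (raw 0.293, adjusted 0.415). Over 15 follicles it had r = -0.379 (raw permutation p = 0.162, adjusted 0.347) with a rho of -0.371 (raw 0.173, adjusted 0.324). Single arrays decided some of these, among them that of C26 and 33, which helps to join the sides of the loop. With it left out, the offset between the sides rests on the array of C10 and 26 alone. Without the array of C26 and 33, INHA was called with INHBA (r = 0.71, permutation, adjusted p = 0.00111), with FST (0.65, adjusted p = 0.00572) and with BMP7 (0.75, adjusted p = 0.000825). The same array left out beside those of J980 gave 0.72, 0.59 and 0.79 (permutation, adjusted p = 0.00759, 0.0458 and 0.00255). INHA with INHBA was also called without the array of 33 and C13 (r = 0.55, permutation, adjusted p = 0.0345), and ID3 with INHBA without J980 and the array of 33 and C12 (r = -0.58, permutation, adjusted p = 0.0489). The 2 ID3 features had r with INHBA of -0.435 and 0.196 over 15 follicles, of opposite sign. In all, 4 of the 15 pairs passed by r and 6 by rho with 16 follicles, and 6 by each without J980; those 6 were the pairs among INHBA, FST, BMP7 and SMAD2.

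Outside the 6 genes, among those that differed between follicles without J980, the 5 most like INHBA by r over 15 follicles were ST3GAL4, a sialyltransferase, at 0.851, TMEM120A, a membrane protein, at 0.784, PSMB4, a proteasome subunit, at 0.762, HIF1A, the hypoxia-inducible factor, at 0.749 and SOAT1, which esterifies cholesterol, at 0.736. These are descriptions over 669 candidate genes, with no test, and BMP7, at 0.917, lay above them all. ST3GAL4, TMEM120A and HIF1A were also lower in J980 than in the mean of the other 15, at -1.18, -0.75 and -1.01 on the log2 scale (limma contrast, adjusted p = 0.000688, 0.00644 and 0.00211). PSMB4 and SOAT1 were at -0.08 and 0.03 there and did not pass. Most like FST, again outside the 6 genes, were NDUFC1, a subunit of respiratory complex I, at 0.824, C15H11orf71 at 0.821 and HIF1A at 0.818. For BMP7 they were SOAT1 at 0.783, HIF1A at 0.725 and ST3GAL4 at 0.724, so HIF1A was named for INHBA, FST and BMP7. For INHA they were other genes, the pseudokinase TRIB2 at 0.849, NABP1, a single-stranded DNA-binding protein, at 0.829, and the adhesion molecule AMIGO2 at 0.819. In J980, NDUFC1 was lower, at -0.67, and C15H11orf71 was higher, at 0.63 (limma contrasts, adjusted p = 0.00247 and 0.0359). TRIB2 and NABP1 were lower there, at -1.50 and -0.64 (limma contrasts, adjusted p = 0.000487 and 0.0208), and AMIGO2, at 0.08, did not pass.

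Other measured genes of the pathway differed between follicles in a minority of cases, though at a larger share than all genes, which was not tested. Of 78 other listed genes of the activin, TGF-beta and BMP pathways, 38 were measured and 9 differed between follicles by the F test, where the share of all genes was 11.8%. Without J980, 8 of the 38 differed, where the share of all genes was 7.47%. The median SD of their levels was 0.18, close to the 0.17 of all genes, and their median r with INHBA over 15 follicles was -0.0051, against 0.0176 for all genes. In J980, 3 of the 38 were lower and 2 higher, where 6.14% and 1.92% of all genes were, and the median difference was 0.02. Where a gene below is called lower or higher in J980, the value is this difference from the mean of the other 15 follicles on the log2 scale.

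Among ligands 1 of 6 measured genes differed. AMH, the anti-Müllerian hormone of granulosa cells, had levels of 0.92 ± 0.22 in 46 and -0.58 ± 0.21 in C35 (limma F test, adjusted p = 0.0164), with J980 near the mean at -0.01. None of 7 receptors or coreceptors passed the F test; ENG, an accessory receptor chiefly of endothelial cells, was lower in J980, at -0.56 ± 0.15 (limma contrast, adjusted p = 0.0415). Neither of the 2 other SMADs measured passed. SMAD4, the partner shared by all receptor-regulated SMADs, came near with an F test adjusted p of 0.0543 and a J980 difference of -0.65 ± 0.20 (limma contrast, adjusted p = 0.072), and SMAD3 was at 0.33 ± 0.12 (limma contrast, adjusted p = 0.131).

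Of 12 extracellular regulators measured, 4 differed, among them FSTL1 and FSTL3, relatives of follistatin. FSTL1, a secreted follistatin-like protein, was higher in J980 by 1.16 ± 0.16 (limma contrast, adjusted p = 0.00146), and its levels were 1.28 ± 0.13 in C26 and -0.93 ± 0.14 in 31. FSTL3, which like follistatin binds activin, was at 0.94 ± 0.24 in 46 and -0.83 ± 0.23 in 861, the follicle highest in FST, and at -0.22 in J980 (limma F test, adjusted p = 0.00264). Its difference in J980, -0.23 ± 0.25, was not called (limma contrast, adjusted p = 0.676). The others were LTBP2, a matrix protein, and DCN, a matrix proteoglycan, with F test adjusted p of 0.0333 and 0.0109 in limma; DCN was lower in J980, at -0.76 ± 0.21 (adjusted p = 0.0461).

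Of 11 targets and nuclear cofactors, 4 differed. The SMAD corepressors SKIL and TGIF1 went opposite ways in J980. SKIL was lower there, at -0.72 ± 0.13, and TGIF1 was higher, at 0.76 ± 0.13 (limma contrasts, adjusted p = 0.00538 and 0.00448). SKIL, like INHBA, was highest in 861, at 0.55 ± 0.12, as were 11.2% of all genes that differed between follicles. Its r with INHBA without J980 was 0.436. CCN2, a matricellular protein, had levels of 0.71 ± 0.08 in C22 and -0.71 ± 0.09 in H893, and JUNB, a transcription factor, 0.54 ± 0.14 in C22 and -0.52 ± 0.14 in C12 (limma F test, adjusted p = 0.00012 and 0.00733). In J980 these 2 genes were at -0.06 and 0.05. The ID genes ID1 and ID2 did not pass with 16 follicles (limma F test, adjusted p = 0.223 and 0.0754), and without J980 ID2 did (adjusted p = 0.0396) and ID1 did not (0.318).

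Some markers of cell types were called in J980, in a contrast that called 6.14% of all genes lower and 1.92% higher. The mean level of 11 measured granulosa markers, of 13 listed outside the 6 genes, was -0.19 in J980 and lay between -0.24, in 26, and 0.24 in the other follicles. Of these 11, 2 were lower in J980, the gap junction protein GJA1 at -1.09 ± 0.19 and the protease inhibitor SERPINE2 at -0.59 ± 0.12 (limma contrasts, adjusted p = 0.005 and 0.0118), and none was higher. The median difference of the granulosa list was -0.06. Its uncalled markers ran from -0.42 in NR5A2 to 0.47 in IHH, with FSHR at 0.09, AMH at -0.01 and CYP19A1 at -0.06. Among 5 genes measured, of 8 listed here as theca markers, 2 were lower in J980, CYP11A1 at -1.13 ± 0.27 and HSD3B1 at -0.67 ± 0.12 (limma contrasts, adjusted p = 0.024 and 0.00629), both enzymes of progesterone synthesis. Whether the genes of this list mark theca alone in these follicles was not tested. The remaining theca markers had positive differences that were not called, INSL3 at 0.20 ± 0.11, NR5A1 at 0.25 ± 0.13 and SCARB1 at 0.38 ± 0.13 (limma contrasts, adjusted p = 0.337, 0.314 and 0.107). The median difference of the theca list was 0.20, and its mean level of -0.18 lay inside the -0.31 to 0.32 of the other follicles. The 10 stroma and smooth muscle markers had a mean of -0.42 in J980, below the range of -0.24 to 0.29 of the others, and 3 of them were lower. For 12 leukocyte and 6 endothelial markers the J980 means were 0.18 and 0.28, within the ranges of -0.17 to 0.34 and -0.40 to 0.39 of the others. Single genes carried most of these means, CXCR4 at a level of 2.06 and CLDN5 at 1.44, and the median differences of the lists were -0.02 and 0.15. Of these, 2 leukocyte markers and 1 endothelial marker were higher, CXCR4 by 2.20 ± 0.21, BOLA-DRA by 0.61 ± 0.15 and CLDN5 by 1.53 ± 0.29 (limma contrasts, adjusted p = 2e-04, 0.0249 and 0.0118). The 4 erythrocyte and 2 oocyte markers held no call in this contrast. The part of cell composition in the low INHBA, FST and BMP7 of J980 was not tested.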

How the data were processed

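Total RNA of 16 follicles was hybridised to 24 two-colour arrays, and spots were quantified with GenePix Pro 4.0.1.12, per the labels' protocols. The authors deposited 1 log ratio per spot, taken here as log2 of Cy5 over Cy3, with base and direction not stated. Log10 is unlikely, since the largest absolute value was 6.32 and uncorrected 16-bit intensities allow at most 4.82. Background correction or normalization could exceed that bound. A natural log also remains possible, and either base would change folds. For background correction, spot filtering and array normalization, the method is not stated in these sources. Array medians lay between -0.0139 and 0.00639. Intensities were not used here, so signal over background is unknown. The labels give no scan or extraction batch.

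Names came from the platform's annotation. Of 17418 features, 13605 had 1 gene symbol, 829 had several and stayed unnamed, and 2984 had none; 13575 matched RefSeq genes by gene ID in assembly ARS-UCD2.0, which changed 0 symbols. Arrays were centred on their medians, features with values on at least 20 arrays were averaged per symbol, and a follicle effect (plus for Cy5, minus for Cy3) with a dye term was fitted exactly for each pattern of missing values, leaving 8 residual degrees of freedom, or 6 without J980. Moderation of variances used limma 3.58.1 (R 4.3.3), the threshold was an adjusted p of 0.05, and plots used matplotlib 3.10.9 (Python 3.11.15).

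The 6 genes, the pathway and marker lists and the contrast with J980 were chosen with earlier results of these data known. Genes were named by rule: the 6 genes, each pathway gene past the F test, and the genes of highest r with INHBA (5) or with another of the 6 past the F test without J980 (3 each). Genes named beside these were markers past a test, and ENG, SMAD3, SMAD4, ID1 and ID2, chosen after their values were seen. On simulated data for 9026 genes, the F test recovered 47.0% of 200 genes at a level SD of 0.25, 97.5% at 0.5 and 100.0% at 1, with 7, 8 and 11 false calls. The J980 contrast recovered 23.5% of 200 genes shifted by 0.5, 89.5% at 1 and 96.5% at 2, with 5, 9 and 16 false calls. Of the pairs of follicles called in the run with shifts of 2, 272 of 2996 were false, above the nominal share. Simulated errors were independent between genes and arrays, whereas real residuals were shared by some genes, so these counts do not cover shared error. Correlation tests were not simulated.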

Additional observations from a re-analysis of the deposited data

How the results depend on the processing

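Over the other settings of centring, scaling, array minimum, dye term, moderation and features per gene, INHBA, FST and BMP7 kept their F test call with 16 follicles and their lower value in J980, and the pairs among them stayed called. With every sign turned (Cy3 over Cy5) the J980 differences became 2.87 for INHBA, 0.82 for INHA, 2.18 for FST, 1.57 for BMP7, 0.10 for SMAD2 and 0.09 for ID3, by construction. The ID3 difference was 0.14 with features on all 24 arrays and 0.14 with 1 feature per gene. Genes differing between follicles numbered 608 without the dye term and 589 without moderation, where 1061 differed, and without J980 they numbered 408 and 303, where 673 did. The J980 contrast called 484 genes without the dye term and 279 with arrays scaled to one spread, where it called 727. Follicle pairs called over all genes numbered 4675 without the dye term and 4834 without moderation, where 8656 were called. The cause of these shifts was not tested. Leaving out 1 array at a time gave 681 to 1172 genes between follicles, 310 to 673 without J980, 19 to 919 for the J980 contrast and 2110 to 12445 pairs, with -0.30 to 0.01 for the ID3 difference.

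Correlations that changed sign all involved INHA or ID3, and none of them was called with all arrays. FST with ID3 was -0.04 with scaled arrays, -0.53 with features on all 24 arrays, -0.10 without the dye term and -0.53 with 1 feature per gene; INHA with ID3 without J980 was -0.12 with scaled arrays. Leaving out 1 array at a time, r ran from -0.23 to 0.51 for INHBA with ID3, -0.10 to 0.52 for INHA with ID3, -0.11 to 0.50 for FST with ID3, -0.16 to 0.58 for BMP7 with ID3 and -0.52 to 0.01 for SMAD2 with ID3. Without J980 the same ranges were -0.58 to 0.33, -0.47 to 0.55, -0.35 to 0.31, -0.40 to 0.44 and -0.52 to 0.03, and INHA ran from -0.25 to 0.72 with INHBA, -0.09 to 0.59 with FST, -0.25 to 0.79 with BMP7 and -0.06 to 0.10 with SMAD2. Without J980, SMAD2 with INHBA and with BMP7 had r = 0.55 and 0.54 with 1 feature per gene (permutation, adjusted p = 0.0984 for each), whereas with all 16 follicles that setting gave 0.79 and 0.76, both called. The pairing of 2 follicles on each array is part of the fit itself, and no further pairing or block was fitted. Each follicle was on 3 arrays, which limits the precision. Comparisons across the sides of the loop are limited further, since only the arrays of C10 and 26 and of C26 and 33 join them.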

Other observations

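The balance between subunits, as the difference of 2 genes' levels within the same follicle fitted in the same loop with its own error, is given as values. INHBA relative to INHA was lowest in J980, at -1.93 ± 0.18 (SE), then in C26 at -0.92 ± 0.16 and C32 at -0.83 ± 0.18, and highest in 861 at 0.77 ± 0.18, 31 at 0.78 ± 0.17 and C12 at 0.88 ± 0.18. Follicle 26, second lowest in INHBA, was at -0.09 ± 0.16 on this measure, since its INHA was low as well. INHBA relative to FST stayed within a narrower band, from -0.65 ± 0.11 in J980 and -0.35 ± 0.10 in 33 to 0.39 ± 0.10 in C10 and 0.59 ± 0.11 in C12. BMP7 relative to FST was lowest in 861 at -0.52 ± 0.10 and highest in J980 at 0.57 ± 0.10, with C10 at 0.41 ± 0.09. These values set unequal changes side by side and say nothing of the amount of either transcript, and no test was made of them.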
